A study of Mus musculus with 6 samples.

Results

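The transcripts described here are the long non-coding RNAs that mouse blastocysts expressed above a low level. They were selected on their label and level from a table of 28879 genes as the entries labelled lncRNA that lie on neither sex chromosome and have a mean above 1 FPKM over 6 RNA-Seq libraries. FPKM counts fragments relative to the counted length of a gene and to a fragment total of the library, so that levels can be compared between genes of different length. Of 369 lncRNA entries, 356 lie off the sex chromosomes, 52 of these have no fragment in any library, and 21 lie above 1 FPKM. Imprinted long non-coding RNAs were left out by name, which removed 1 entry and left 20 long non-coding RNAs. The genes were thus chosen by their mean FPKM over both groups together, so their levels are given as a description. The rule did not use the difference between fresh and vitrified–warmed embryos, but a gene high in 1 group alone can pass it. Ptprtos did so, with 0.709 FPKM in fresh and 1.39 FPKM in vitrified–warmed libraries. The 3 entries just inside the limit were BC002059 at 1.29, AA465934 at 1.27 and Ptprtos at 1.05 FPKM, and the 3 just outside it were LOC100862203 at 0.942, Stamos at 0.849 and Man2c1os at 0.826 FPKM.

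The libraries come from 2 pools of blastocysts, 1 fresh and 1 vitrified and warmed with the Cryotech kit, each divided into 3 aliquots with 1 library per aliquot. All embryos, controls included, came from superovulated females aged 6 to 8 weeks and grew for 3 days in culture, in human tubal fluid. The labels give the strain as C57BL/6JNarl in one place and as B6CBF1 in another. Because the 3 aliquots of a group share 1 pool, every p-value measures the spread between aliquots, and the spread between embryos or pools was not measured.

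Long non-coding RNAs are transcripts that are not known to be translated into a protein of usual length, and they act, where a role is known, as RNA. Several of them are host genes of small nucleolar RNAs (snoRNAs), which sit in the introns of the host and guide chemical modification or processing of ribosomal RNA. Small Cajal body RNAs (scaRNAs) are their relatives that act on spliceosomal RNA. The snoRNA is released from the spliced-out intron, and many spliced host RNAs are short-lived because they are destroyed once they meet the ribosome. Many host genes start their transcript at a C followed by a run of C and T, the 5′ terminal oligopyrimidine sequence that they share with ribosomal protein genes. Other long non-coding RNAs stay in the nucleus as parts of nuclear bodies, serve as the template of telomerase, or run along a protein-coding gene on the opposite strand.

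The starts of 8 snoRNA or scaRNA hosts are shown because their transcripts differed in how they changed. Each line runs from 45 bases before the annotated start to 30 bases from the start onwards, from the RefSeq promoter windows on GRCm38.p6, and capitals mark a C followed by at least 4 of C or T that begins within 10 bases of the start, the nearest to it where there are several.
Gas5: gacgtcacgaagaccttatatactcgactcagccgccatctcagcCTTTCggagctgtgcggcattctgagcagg
Snhg12: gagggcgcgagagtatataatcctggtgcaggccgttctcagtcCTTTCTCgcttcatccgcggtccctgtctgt
Snhg9: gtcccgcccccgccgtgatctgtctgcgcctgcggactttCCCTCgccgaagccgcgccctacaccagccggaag
Rab26os: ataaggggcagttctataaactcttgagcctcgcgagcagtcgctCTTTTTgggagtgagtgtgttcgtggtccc
Snhg3: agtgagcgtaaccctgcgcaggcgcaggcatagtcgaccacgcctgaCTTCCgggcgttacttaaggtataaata
Snhg8: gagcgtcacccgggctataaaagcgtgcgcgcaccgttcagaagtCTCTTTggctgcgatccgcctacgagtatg
Snhg10: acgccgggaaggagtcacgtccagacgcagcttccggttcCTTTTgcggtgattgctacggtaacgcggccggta
Dancr: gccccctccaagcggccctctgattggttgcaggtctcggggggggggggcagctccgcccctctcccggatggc
These stretches lie at chr1:161035121-161035195 on the plus strand for Gas5, chr4:132308633-132308707 on the plus strand for Snhg12, chr17:24719936-24720010 on the minus strand for Snhg9 and chr17:24528206-24528280 on the plus strand for Rab26os. They lie at chr4:132353657-132353731 on the minus strand for Snhg3, chr3:123508307-123508381 on the minus strand for Snhg8, chr12:105032250-105032324 on the minus strand for Snhg10 and chr5:74093015-74093089 on the plus strand for Dancr. Promoter windows were matched by symbol for 14 of the 20 genes, and the run was found in 9 of the 14 (64.3%) and in 30.7% of all 32851 windows. Among hosts called higher it was present in Gas5, Snhg12, Snhg9, Rab26os and Snhg3 and absent from AA465934. Snhg4, also a host called higher, had no matched window. Among hosts called lower or not called it was present in Snhg10, Snhg8 and AI506816 and absent from Dancr. The Dancr window takes its start at chr5:74093060, whereas the counted entry starts at 74093083. A run of C and T in the printed Dancr stretch ends just before the entry start, so this absence depends on the start used. In Snhg9 and Snhg10 the run lies wholly before the annotated start, and in Snhg3 it begins at base 3. Whether the run bears on the changes was not tested.

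Within windows of 250 bases before and 50 after the start, searched on both strands, CCAAT was found in 9 of the 14 genes (37.4% of all windows) and TATAAA in 4 (13.6% of all windows). CGGAAG, the core of sites for ETS factors, was found in 5 (16.9% of all windows), and TGCACNC or TGCGCNC, the core of the metal response element, in 4 (25.7% of all windows). The E-box CACGTG was found in Snhg9 and AA465934 (7.15% of all windows). The cyclic AMP response element TGACGTCA was found in Gas5 alone among the 14 genes (1.79% of all windows).

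The libraries held 9093411 to 11843562 exon fragments each. The total by which the FPKM of a library were divided was inferred from its counts, lengths and FPKM. Exon fragments came to 63.2% to 63.6% of this total in fresh and 54.4% to 56.6% in vitrified–warmed libraries. Which fragments the total holds is not given in the sources used here. Trophectoderm markers summed to 470 to 482 FPKM in fresh and 471 to 494 FPKM in vitrified–warmed libraries, with 6 of 6 above 1 FPKM. Epiblast markers summed to 157 to 162 and 138 to 147 FPKM, and primitive endoderm markers to 31.5 to 32.1 and 36.4 to 41.4 FPKM. Of the markers of other cells, those of cumulus, oviduct and sperm stayed at a summed 0.617 FPKM or less, with Prm2 and Tnp1 at 0, and those of blood summed to 2.95 to 3.68 FPKM in fresh and 10.7 to 14.5 FPKM in vitrified–warmed libraries. The part that cell composition has in the results was not tested. In pooled embryos, fewer cells of a type and less RNA per cell cannot be told apart.

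Every one of the 369 lncRNA entries has 0 exons annotated in the table, and its counted length equals its whole span, so introns are counted with exons. GENCODE exons, without retained-intron transcripts, cover from 9.23% of the span (BC002059) to 100% (Malat1, Bc1, Terc and others) of these genes. For genes whose counted span holds introns, the values are therefore sums over spliced and unspliced RNA, which cannot be told apart in these counts.

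The 20 genes spanned levels from 1.05 to 361 FPKM. Malat1, a nuclear RNA of the splicing factor bodies called speckles, stood highest with 369, 370 and 373 FPKM in the fresh and 356, 345 and 354 FPKM in the vitrified–warmed libraries. Gas5, a snoRNA host whose RNA builds up when growth stops, followed at a mean of 84.6 FPKM, and Snhg3 at 62.3 FPKM. Bc1, a short RNA made by RNA polymerase III and best known from neurons, had a mean of 41.8 FPKM, Snhg9 had 38.7 and Rab26os had 35.8 FPKM. In the vitrified–warmed pool Bc1 at 61.6 ± 5.32 FPKM and Snhg3 at 61.3 ± 1.87 FPKM overlapped (SD, n = 3 aliquots each). In the fresh pool Bc1 stood at 22.02 ± 5.03 and Snhg3 at 63.3 ± 3.76 FPKM, with no overlap. All of them but Ptprtos lay above 1 FPKM in both pools, and Ptprtos had a mean of 0.709 FPKM in fresh and 1.39 FPKM in vitrified–warmed libraries.

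**Figure D1:**
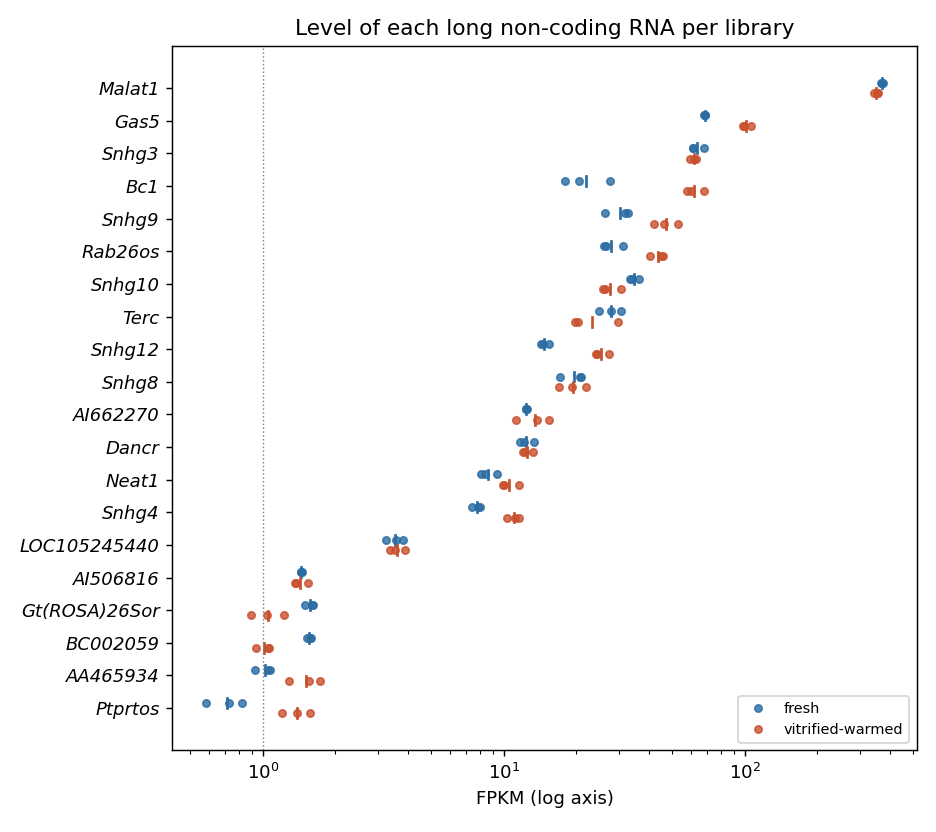
FPKM of the 20 long non-coding RNAs in each of 3 fresh (blue) and 3 vitrified–warmed (orange) libraries on a log axis, with group means as vertical bars and the limit of 1 FPKM as a dotted line. Malat1 is highest in both groups, Bc1 and Snhg12 show groups that lie apart, and Snhg3 and Snhg8 show groups that overlap.

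The 20 genes took a larger share of the exon fragments of the vitrified–warmed libraries. Malat1 alone made up 0.408%, 0.407% and 0.410% of exon fragments in the fresh and 0.444%, 0.442% and 0.437% in the vitrified–warmed libraries. The other 19 genes together made up 0.113%, 0.113% and 0.110% in the fresh and 0.151%, 0.162% and 0.150% in the vitrified–warmed libraries, so that the groups did not overlap for either share. These shares hold for exon fragments, which made up 63.2% to 63.6% of the FPKM total in fresh and 54.4% to 56.6% in vitrified–warmed libraries. In FPKM, Malat1 was lower in the vitrified–warmed libraries, at a mean of 352 against 371.

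Of the 20 genes, 12 were higher and 3 lower in the vitrified–warmed libraries at an adjusted p under 0.05 by edgeR's quasi-likelihood test on the counts, with Benjamini–Hochberg adjustment over 12774 genes, and 5 did not pass. The share called was thus 75%, where 64.4% of all genes tested were called. The share called higher was 60% against 31.6% of all genes tested, and the share called lower was 15% against 32.8%. The median log2 fold change was 0.24, beside -0.001 over all genes tested and -0.04 over 7931 protein-coding genes above 1 FPKM. On the FPKM scale, without rescaling, the split was 9 higher and 4 lower by limma on log2(FPKM + 0.5), where 20.7% of all genes tested were higher and 43.4% lower, and the median was 0.06 where that of all genes was -0.13. With the trend over exon length removed (an exon length offset in edgeR), 10 were higher and 4 lower, where 28.4% of all genes tested were higher and 35.1% lower. Counts relative to the exon fragments of a library, scaled by TMM (CPM), did not overlap between groups for 13 genes that were higher and 2 that were lower, where 33.5% and 35.1% of all genes tested did so (68.6% in either direction). The study's thresholds (mean above 0.5 FPKM, unadjusted p under 0.05 and 1.5-fold) were applied here to edgeR's p-values and fold changes. With them, 8 of the 20 were higher and 0 lower, beside 9.17% and 11.6% of all genes tested. These calls are not those of the authors, whose p-values and fold changes were not used. An exact permutation test of a single gene cannot go below 0.1 with 3 libraries against 3.

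**Figure D2:**
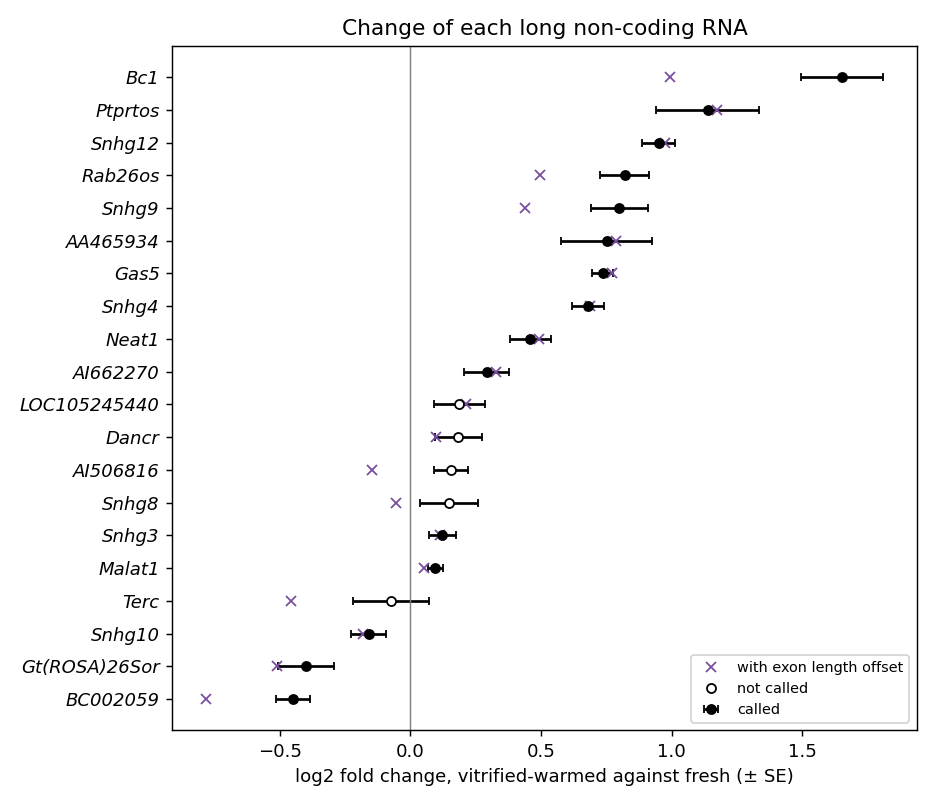
Log2 fold change of each long non-coding RNA in vitrified–warmed against fresh libraries, with standard errors from edgeR as bars, filled points where the adjusted p was under 0.05 and open points otherwise. Crosses give the value after removing the trend with exon length, which lowers Bc1 from 1.65 to 0.99 and BC002059 from -0.45 to -0.78.

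Other entries counted in the same way had a median of the same sign. Among all entries above 1 FPKM with 0 exons annotated, the 20 included, 95 of 200 were higher and 33 lower, with a median log2 fold change of 0.25. Among 8185 entries above 1 FPKM with annotated exons, 2340 were higher and 2929 lower, with a median of -0.04. The 123 tested entries above 1 FPKM labelled non_coding, a separate label in the table, had 56 higher and 23 lower and a median of 0.29. With the trend over exon length removed, these medians were 0.09, -0.07 and 0.14 in that order, beside 0.27 for the 20 genes. The part that the counting of introns has in the values of the 20 genes was not tested.

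Among the snoRNA hosts, 8 by symbol, 5 were higher and 1 lower, with a median log2 fold change of 0.43, where 31.6% of all genes tested were higher, 32.8% lower and 64.4% called in either direction. With the trend over exon length removed, the median of these 8 hosts was 0.28. By GENCODE positions, 11 of the 20 genes contain an annotated snoRNA or scaRNA on the same strand, the 8 and also Rab26os with Snord60, AA465934 with Snord7 and AI506816 with Mir3096, which GENCODE types as a snoRNA. Of these 11 hosts, 7 were higher and 1 lower with a median of 0.68, and of the other 9 genes 5 were higher and 2 lower with a median of 0.19. With the trend over exon length removed, the medians were 0.44 for the 11 hosts and 0.21 for the other 9 genes. Both groups are read against the same shares of all genes, and the difference between the hosts and the others was not tested. The 11 spans hold 24 annotated small RNAs. For 14 of them the table has an entry of its own, and all 14 were listed with 0 fragments in all 6 libraries. How fragments were assigned between these entries and the host spans around them is not given in the sources used here. The values of 0 therefore do not show that the small RNAs were absent.

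**Figure D3:**
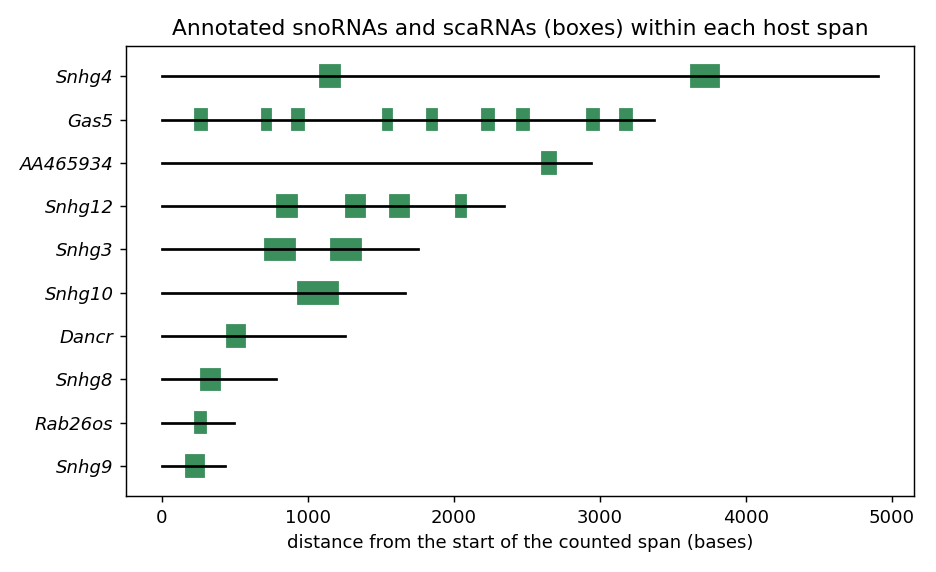
Counted span of 10 of the 11 host genes as lines from the start, in bases, with GENCODE snoRNAs and scaRNAs as boxes. Gas5 holds 9 small RNAs, Snhg12 holds 4, Snhg3 and Snhg4 hold 2 each, and the other hosts hold 1 each; AI506816, whose span is 20407 bases, is not drawn.

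Snhg12 (GRCm38 chr4:132308678-132311024), host of Snora16a, Snora44, Snora61 and Snord99, showed the largest rise among the hosts. It had 56.8, 54.4 and 53.1 CPM in the fresh and 102, 116 and 99.9 CPM in the vitrified–warmed libraries. The groups lay far apart, and the log2 fold change was 0.95 ± 0.06 (SE), a 1.93-fold rise with an adjusted p of 1.19e-08 by edgeR's quasi-likelihood test.

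Gas5 (chr1:161035166-161038537), with 9 annotated small RNAs in its span, had 363, 366 and 366 CPM in the fresh and 589, 647 and 589 CPM in the vitrified–warmed libraries. All 3 vitrified–warmed aliquots were above all fresh ones, and the fresh aliquots differed among themselves by a coefficient of variation of 0.503%. The log2 fold change was 0.74 ± 0.04 (SE), or 1.67-fold, with an adjusted p of 1.85e-09 by edgeR. GENCODE exons cover 14.8% of its counted span.

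Snhg4 (chr18:35553410-35558316), host of Snora74a, had 61.5, 61.4 and 57.5 CPM in the fresh and 97.3, 103 and 89.2 CPM in the vitrified–warmed libraries. Its groups did not overlap, and it rose 1.60-fold (log2 fold change 0.68 ± 0.06 (SE), adjusted p 1.95e-07 by edgeR).

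Snhg9 (chr17:24719531-24719965), host of Snora78, had 21.7, 22.8 and 18.3 CPM in the fresh and 35.7, 41.8 and 32.3 CPM in the vitrified–warmed libraries. It was higher in every vitrified–warmed library, with a log2 fold change of 0.80 ± 0.11 (SE) and an adjusted p of 1.42e-05 by edgeR. The whole span of Snhg9 lies within Rps2, a ribosomal protein gene on the opposite strand with 390 FPKM in fresh and 400 FPKM in vitrified–warmed libraries. Whether the counting used strand is not given in the sources used here, so reads of the 2 genes cannot be told apart where they overlap.

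Smaller differences were found for the other hosts. Snhg3 (chr4:132351933-132353686), host of Snora73a and Snora73b within the GENCODE span of Rcc1, had 168, 190 and 171 CPM in the fresh and 193, 200 and 184 CPM in the vitrified–warmed libraries, and the groups overlapped. Its log2 fold change was 0.12 ± 0.05 (SE) with an adjusted p of 0.045 by edgeR, and the call was lost without fresh replicate 1 (0.09), fresh replicate 3 (0.10), vitrified–warmed replicate 1 (0.13) or vitrified–warmed replicate 2 (0.10). On the FPKM scale its direction turned, with a log2 difference of -0.05 by limma. Snhg8 (chr3:123507552-123508336), host of Snora24, had 25.6, 21.5 and 26.1 CPM against 23.7, 31.2 and 26.5 CPM and did not pass (log2 fold change 0.15, 95% interval -0.07 to 0.36). Dancr (chr5:74093083-74094336), which holds Snora26 and whose human counterpart is named for holding back differentiation, had 23.9, 26.7 and 23.3 CPM against 26.9, 30.04 and 27.0 CPM. Its groups did not overlap, but the adjusted p was 0.0845 by edgeR at a log2 fold change of 0.18 ± 0.09 (SE).

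Snhg10 (chr12:105030617-105032279), host of the scaRNA Scarna13, was the host with a lower value. It had 94.5, 88.5 and 90.4 CPM in the fresh and 76.3, 92.2 and 77.1 CPM in the vitrified–warmed libraries, so that vitrified–warmed replicate 2 lay within the fresh range. The log2 fold change was -0.16 ± 0.07 (SE) with an adjusted p of 0.0493 by edgeR. The call was lost without any one of fresh replicates 1, 2 and 3 or vitrified–warmed replicates 1 and 3 (log2 fold changes -0.13, -0.18, -0.17, -0.10 and -0.10), and 0 hosts were then called lower.

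The list of snoRNA hosts held 15 genes with an entry in the table, the 8 above and 7 that are not among the 20 genes. Of these 7, 4 were higher and 1 lower with a median log2 fold change of 0.22, where 31.6% of all genes tested were higher and 32.8% lower. Snhg1, labelled non_coding, had 28.6, 27.97 and 29.7 FPKM in fresh and 43.5, 45.8 and 43.1 FPKM in vitrified–warmed libraries, a log2 fold change of 0.79. Snhg6 at 0.59, Snhg7 at 0.55 and Snhg5 at 0.22 were also higher, and Snhg14, a long host transcript of an imprinted region, was lower at -0.39. Snhg11 at 0.04 and Snhg18 at -0.79 did not pass the test.

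Of the nuclear RNAs, Neat1 rose on both scales, and the direction of Malat1 differed between them. Neat1 is the backbone of paraspeckles, nuclear bodies that hold RNA and RNA-binding proteins. The counted span of Neat1 (chr19:5842302-5845478) is 3177 bases, the 5′ part that its short form covers, while the GENCODE gene runs from 5824708 to 5845478, so the long form was not measured apart. Neat1 had 40.1, 42.3 and 47.6 CPM in the fresh and 56.5, 57.0 and 65.1 CPM in the vitrified–warmed libraries. The groups did not overlap, and it rose 1.37-fold (log2 fold change 0.46 ± 0.08 (SE), adjusted p 9.32e-05 by edgeR). On the FPKM scale the log2 difference was 0.27 with an adjusted p of 0.0237 by limma.

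Malat1 (chr19:5795690-5802671) had 4037, 4132 and 4148 CPM in the fresh and 4425, 4360 and 4369 CPM in the vitrified–warmed libraries. It was higher in every vitrified–warmed library on that scale, with a log2 fold change of 0.09 ± 0.03 (SE) and an adjusted p of 8.49e-03 by edgeR. In FPKM all 3 vitrified–warmed libraries were lower, at 352 ± 6.03 against 371 ± 2.24 (SD, n = 3 each), and limma on log2(FPKM + 0.5) gave -0.08 with an adjusted p of 0.0369. The direction of Malat1 thus differed between the CPM and the FPKM scale. The fits on these scales differ in the library total, the scaling and the model, and the part of each was not tested. With the trend over exon length removed, the call was lost (log2 fold change 0.05, adjusted p 0.128 by edgeR).

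Bc1 is shown whole because it had the largest log2 fold change of the 20 genes in the fit without a length correction (with the trend over exon length removed, Ptprtos at 1.17 was above Bc1 at 0.99). It is a single short exon, chr7:144914470-144914623 on the plus strand (GENCODE transcript on GRCm38, cut to the 154 bases of the entry), and capitals mark its longest run of A, 23 bases from base 77, in the A-rich middle of the RNA.
Bc1: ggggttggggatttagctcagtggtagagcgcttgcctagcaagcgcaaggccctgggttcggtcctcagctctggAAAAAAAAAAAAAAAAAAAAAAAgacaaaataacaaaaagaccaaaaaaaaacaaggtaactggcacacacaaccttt
The part before the run is related to the ID elements, short repeats with many copies in rodent genomes, and how reads that map to several places were counted is not given in the sources used here. Bc1 had 47, 77 and 59 fragments, or 4.31, 6.80 and 5.04 CPM, in the fresh and 199, 148 and 183 fragments, or 18.5, 16.1 and 16.2 CPM, in the vitrified–warmed libraries. The lowest vitrified–warmed value was well above the highest fresh one, and the log2 fold change was 1.65 ± 0.16 (SE), 3.14-fold, with an adjusted p of 3.46e-07 by edgeR. Short entries as a class were higher: among 18 tested entries of up to 200 bases, 15 were higher and 1 lower, with a median log2 fold change of 1.05. With the trend over exon length removed, Bc1 was higher by 0.99 on the log2 scale with an adjusted p of 5.30e-05 by edgeR.

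Terc, the RNA that carries the template of telomerase, is shown by the first 80 bases of its entry (chr3:96414754-96414833, minus strand, from the GENCODE transcript on GRCm38) because the template lies at its very start, where capitals mark CTAACCC, the complement of the telomere repeat.
Terc: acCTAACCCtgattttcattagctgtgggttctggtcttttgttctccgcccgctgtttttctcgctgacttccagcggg
Terc had 19.1, 17.7 and 15.6 CPM in the fresh and 14.3, 14.2 and 20.9 CPM in the vitrified–warmed libraries. Vitrified–warmed replicate 3 was the highest of all 6 libraries and the other 2 were the lowest. The log2 fold change was -0.07 with a 95% interval of -0.36 to 0.21 and an adjusted p of 0.681 by edgeR. Without vitrified–warmed replicate 1 or 2 the value was 0.03 or 0.02. With the trend over exon length removed it was -0.46 with an adjusted p of 0.0134 by edgeR.

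Both Ptprtos and Rab26os, named for lying on the opposite strand of a coding gene, rose. Ptprtos (chr2:162390813-162393946) lies within Ptprt, a receptor-type tyrosine phosphatase, on the other strand. It had 44, 41 and 34 fragments, or 4.04, 3.62 and 2.91 CPM, in the fresh and 72, 82 and 87 fragments, or 6.70, 8.89 and 7.71 CPM, in the vitrified–warmed libraries. The groups did not overlap, and the log2 fold change was 1.14 ± 0.20 (SE), 2.20-fold, with an adjusted p of 1.11e-04 by edgeR. Rab26os (chr17:24528251-24528744), which holds Snord60, had 20.5, 24.6 and 20.4 CPM in the fresh and 39.4, 41.0 and 35.5 CPM in the vitrified–warmed libraries. It rose 1.77-fold (log2 fold change 0.82 ± 0.09 (SE), adjusted p 2.03e-06 by edgeR), with all vitrified–warmed libraries above all fresh ones. Among 134 tested entries of 200 to 500 bases, 68 were higher and 22 lower, with a median log2 fold change of 0.26. With the trend over exon length removed, the log2 fold change of Rab26os was 0.50 and that of Snhg9, another short entry, was 0.44.

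AA465934 (chr11:83291699-83294637), which holds Snord7, had 4.86, 5.04 and 4.36 CPM in the fresh and 8.10, 6.83 and 8.96 CPM in the vitrified–warmed libraries. Its groups did not overlap, and it rose 1.68-fold (log2 fold change 0.75 ± 0.17 (SE), adjusted p 1.33e-03 by edgeR). AI662270 (chr11:83223576-83226584) had 58.3, 59.6 and 59.8 CPM in the fresh and 73.3, 61.2 and 82.3 CPM in the vitrified–warmed libraries. The vitrified–warmed aliquots of AI662270 were all higher but spread more widely, and the log2 fold change was 0.29 ± 0.09 (SE) with an adjusted p of 0.0104 by edgeR. On the FPKM scale its groups overlapped and the call was lost, with a log2 difference of 0.10 and an adjusted p of 0.431 by limma.

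Besides Snhg10, Gt(ROSA)26Sor and BC002059 fell. Gt(ROSA)26Sor (chr6:113067428-113077244), the locus into which many mouse transgenes are placed, had 24.7, 25.3 and 23.4 CPM in the fresh and 21.5, 15.8 and 18.1 CPM in the vitrified–warmed libraries. The groups did not overlap, and the log2 fold change was -0.40 ± 0.11 (SE) with an adjusted p of 4.31e-03 by edgeR. BC002059 (chr17:16951518-16974161) had 56.3, 57.1 and 55.0 CPM in the fresh and 42.3, 38.4 and 42.5 CPM in the vitrified–warmed libraries. It was lower in all 3 vitrified–warmed aliquots, with a log2 fold change of -0.45 ± 0.07 (SE) and an adjusted p of 2.30e-05 by edgeR. GENCODE exons cover 16.4% of the counted span of Gt(ROSA)26Sor and 9.23% of that of BC002059.

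Another long entry, AI506816 (chr5:23692261-23712667), had 46.2, 47.0 and 47.1 CPM against 56.0, 51.0 and 49.3 CPM, with no overlap and an adjusted p of 0.0514 by edgeR. Its log2 value of 0.16 became -0.15 with the trend over exon length removed and -0.01 on the FPKM scale, so it had no fixed direction. LOC105245440 (chr12:99643085-99647222), whose position corresponds to a GENCODE lincRNA gene, had 21.0, 23.7 and 25.05 CPM against 26.1, 29.1 and 24.6 CPM. Its groups overlapped, with an adjusted p of 0.103 by edgeR.

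Members less than 200 kb apart on a chromosome form 4 pairs, and the ratio of their counts within a library needs no scaling between libraries. This comparison was chosen after the values were seen. The ratio of Snhg12 to Snhg3, which lie 40.9 kb apart, was 0.338, 0.287 and 0.311 in the fresh and 0.528, 0.583 and 0.544 in the vitrified–warmed libraries. The ratio of Neat1 to Malat1, 39.6 kb apart, was 0.00993, 0.0102 and 0.0115 in the fresh and 0.0128, 0.0131 and 0.0149 in the vitrified–warmed libraries. That of AA465934 to AI662270, 65.1 kb apart, was 0.0835, 0.0844 and 0.0730 against 0.111, 0.112 and 0.109. In each of these pairs all vitrified–warmed libraries had a higher ratio than all fresh ones, with an exact two-sided permutation p of 0.1, the smallest possible with 3 against 3, and 0.133 adjusted over the 4 pairs. The ratio of Rab26os to Snhg9, 191 kb apart, was 0.941, 1.08 and 1.12 against 1.10, 0.982 and 1.10, with overlapping groups and an exact permutation p of 0.7.

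**Figure D4:**
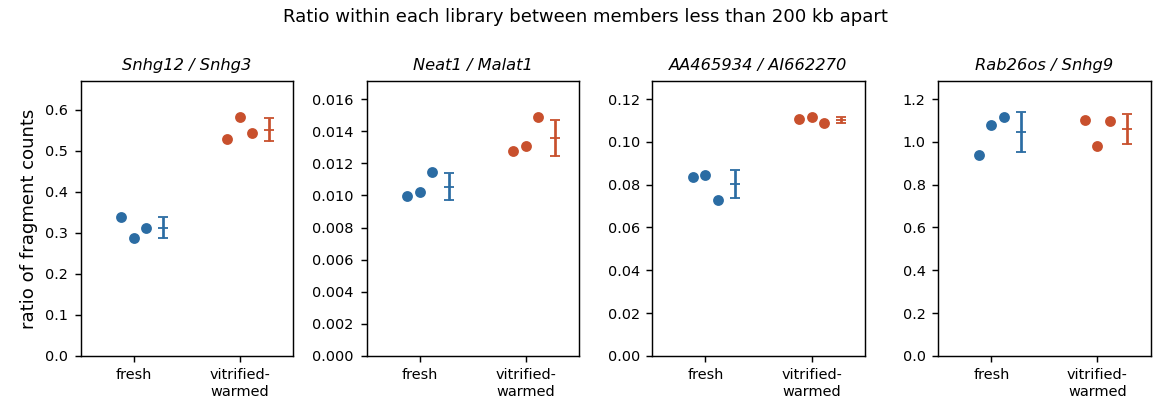
Ratio of fragment counts within each library for the 4 pairs of long non-coding RNAs less than 200 kb apart, with fresh libraries in blue and vitrified–warmed libraries in orange (points) and the mean ± SD beside them. The ratios of Snhg12 to Snhg3, Neat1 to Malat1 and AA465934 to AI662270 lie apart between groups, and that of Rab26os to Snhg9 overlaps.

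The genes form 8 pairs with protein-coding entries that they overlap or that start within 2 kb in the opposite direction, and of these coding partners 1 rose, 1 fell and 6 did not pass the test, where 64.4% of all genes tested were called. Rab26os and Traf7, a ubiquitin ligase gene, start 313 bases apart and run in opposite directions. Traf7 had 13.7 ± 0.535 FPKM in fresh and 8.29 ± 0.242 FPKM in vitrified–warmed libraries (SD, n = 3 each), and fell by 0.55 on the log2 scale (adjusted p 2.60e-06 by edgeR), while Rab26os rose by 0.82. Gas5 and Zbtb37, a zinc finger gene, start 302 bases apart, and Zbtb37 had a log2 fold change of 0.15 with an adjusted p of 0.333 by edgeR beside 0.74 for Gas5. Snhg10 and Glrx5, a mitochondrial glutaredoxin gene, start 410 bases apart, and Glrx5 had 0.19 with an adjusted p of 0.225 by edgeR beside -0.16 for Snhg10.

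Gt(ROSA)26Sor overlaps Thumpd3 by 851 bases and starts 380 bases from Setd5, a gene of the SET domain family. Thumpd3 at 0.15 and Setd5 at -0.03 did not pass the test, with adjusted p-values of 0.0938 and 0.646 by edgeR, beside -0.40 for Gt(ROSA)26Sor. Rps2 was higher by 0.21 with an adjusted p of 4.84e-05 by edgeR, beside 0.80 for Snhg9 within it. Ptprt, around Ptprtos, stood at 0.0619 FPKM in fresh and 0.0642 FPKM in vitrified–warmed libraries and did not pass (log2 fold change 0.24 ± 0.53 (SE)). LOC105247050, which overlaps AI506816 on the same strand, had 0.25 with an adjusted p of 0.182 by edgeR.

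**Figure D5:**
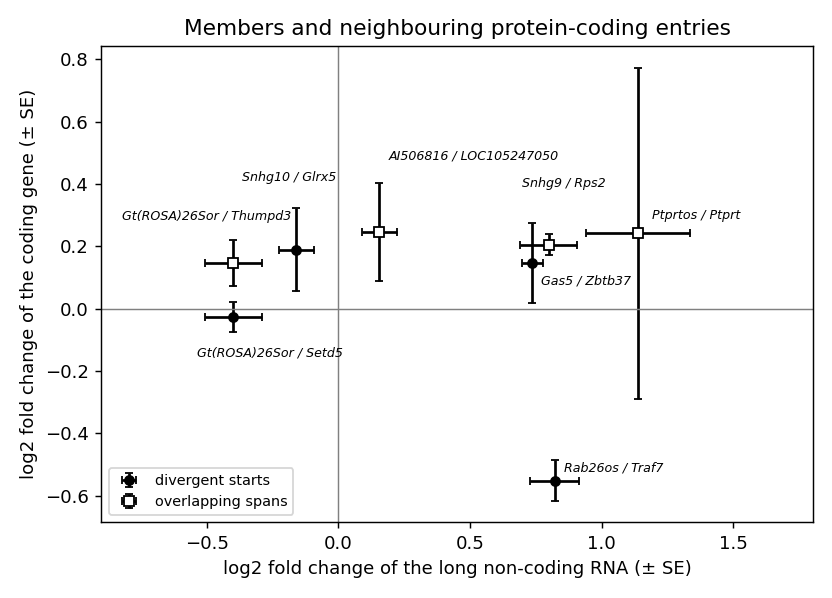
Log2 fold change of each long non-coding RNA (x axis) against that of a protein-coding entry it overlaps (squares) or with which it has divergent starts (circles), with standard errors as bars, for 8 pairs. Rab26os and Traf7 lie at 0.82 and -0.55, and the other coding entries lie between -0.03 and 0.25.

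Other non-coding genes of known roles lay outside the rule by their level or label. Of the 6 microRNA host genes listed, 4 could be tested, with 3 higher and 1 lower, where 31.6% of all genes tested were higher and 32.8% lower. Their median log2 fold change was 0.97, and -0.05 with the trend over exon length removed. Mir22hg, host of miR-22, had 0.580, 0.686 and 0.719 FPKM in fresh and 2.07, 1.998 and 1.67 FPKM in vitrified–warmed libraries, a log2 fold change of 1.70. Mir17hg, host of the miR-17 cluster, had 6.18, 6.05 and 6.11 FPKM in fresh and 2.53, 3.12 and 2.81 FPKM in vitrified–warmed libraries, a log2 fold change of -0.95. These 2 hosts thus moved in opposite directions with no overlap between groups. Of 6 genes linked to growth, p53 or chromatin, 4 could be tested, with 3 higher and 1 lower, beside the same shares of all genes tested. The median log2 fold change of these genes was 1.30, and 0.52 with the trend over exon length removed. Trp53cor1, known as lincRNA-p21 and induced by p53, was higher by 2.13 on the log2 scale (adjusted p 3.19e-06 by edgeR) at 0.0397 FPKM in fresh and 0.155 FPKM in vitrified–warmed libraries. Fendrr, named for its place beside the gene of a developmental transcription factor, was lower (log2 fold change -3.86, adjusted p 1.60e-04 by edgeR) at 0.0455 FPKM in fresh and 0.00271 FPKM in vitrified–warmed libraries. Lincred1 and Pvt1 were the other genes of the list that were higher. Lincred1 had 0.00282, 0.00266 and 0 FPKM in fresh and 0.0655, 0.0720 and 0.0724 FPKM in vitrified–warmed libraries. Its log2 fold change of 5.21 ± 0.64 (SE) is thus taken against values near 0, and its size is uncertain. The size of the fall of Fendrr is uncertain too, with 0, 0.00636 and 0.00178 FPKM in the vitrified–warmed libraries. Pvt1 had 0.513 FPKM in fresh and 0.631 FPKM in vitrified–warmed libraries, with a log2 fold change of 0.47.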

How the data were processed

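RNA-Seq was measured in 6 libraries, 3 aliquots of 1 fresh and 3 of 1 vitrified–warmed pool, grouped by the deposited labels. The authors made libraries with the Ovation SoLo kit and trimmed, aligned (GRCm38) and counted reads in CLC Genomics Workbench. The deposited counts are whole fragments per gene, without normalization, and the deposited FPKM divide them by the counted length and by a total per library, here larger than its summed exon fragments. The deposited table also holds log2 fold changes of the authors' group means and the authors' p-values, which were not used. The annotation release, strand setting and treatment of multiply mapped reads are not given in the sources used here. Of 28887 entries, 8 name no gene.

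Counts were filtered with filterByExpr and tested with edgeR 4.0.16 in R 4.3.3 (TMM, robust quasi-likelihood, no block), adjusted by Benjamini–Hochberg over 12774 genes, after a check on simulated data. Alternatives were DESeq2 1.42.0, limma 3.58.1 on log2(FPKM + 0.5) or log2(FPKM + 0.1), a calibration to the study's 12 housekeeping genes, genes unfiltered for low counts, genes above 1 FPKM alone, an exon length offset (a loess trend of span 0.5 removed), a replicate block, each library left out, the study's thresholds and other limits for choosing the genes. Positions came from GENCODE M21 and promoter windows from RefSeq. Python 3.11.15, numpy 2.4.6, pandas 2.3.3 and scipy 1.17.1 were used.

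The genes, lists and classes were chosen with earlier results of these data known. The rule for named genes took members of the function classes, the 8 largest rises and falls past the test without overlap in CPM, the 6 highest levels, and members absent from 1 whole group (0 genes). The other members (Terc, AI662270, LOC105245440 and AI506816) were named so that all 20 are accounted for. The non-members named, their lists aside, were chosen after their values were seen.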

Additional observations from a re-analysis of the deposited data

How the results depend on the processing

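Over 15 alternatives and 20 genes, 254 values kept their direction and their side of the threshold, 26 lost the call, 8 gained it and 12 turned. Those that turned were Malat1 (-0.0766 with limma on log2(FPKM + 0.5) and -0.0767 on log2(FPKM + 0.1)), Snhg3 (-0.0461 and -0.0464 with these limma fits), Snhg8 (-0.0210 and -0.0214, and -0.0544 with the exon length offset), AI506816 (-0.0131 and -0.0169, and -0.15 with the offset) and Terc (-0.2727 to 0.0349 with 1 library left out). The median of all genes is -0.13 on the unscaled FPKM scale, and the cause of the reversals was not tested.

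The number of these genes called lower, 3, was 0 at the study's thresholds, 1 with a mean above 2 FPKM (15 genes) and 8 with a mean above 0.5 FPKM (32 genes). The number called higher, 12, was 11 with 1 FPKM asked of each group (19 genes), which leaves out Ptprtos. Among the 7 that overlap no other entry, 5 were higher and 1 lower, where 31.6% of all genes tested were higher and 32.8% lower. The median log2 fold change, 0.24, was 0.0598 and 0.0622 with the limma fits, 0.29 above 2 FPKM, 0.17 above 0.5 FPKM, 0.19 with 1 FPKM asked of each group and 0.29 without overlapping genes, and 0.23 to 0.28 with 1 library left out. The 1 snoRNA host called lower, Snhg10, became 0 hosts with DESeq2, the calibration to 12 housekeeping genes, no filter, only genes above 1 FPKM or the study's thresholds, and 0 to 1 with 1 library left out. Over all genes, 4034 higher and 4188 lower became 2647 higher and 5542 lower with limma on log2(FPKM + 0.5). With only genes above 1 FPKM they became 2727 higher and 2790 lower. The study's thresholds, applied to the edgeR values, called 1172 higher and 1477 lower.

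Same-numbered libraries did not deviate together (correlations of -0.035, 0.0078 and -0.013), so the numbers give no pairing. With a replicate block, 12 of the genes were higher and 2 lower, 0 snoRNA hosts were lower, and the median was 0.24. Only 3 aliquots of 1 pool per group limit every value here, and counts were lowest on average for Ptprtos and AA465934, at 34 to 101 fragments a library.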
